A study of Sus scrofa with 2 samples.

Results

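The genes described here are those of the signalling chains of the T cell receptor complex, CD3D, CD3E, CD3G and CD247, together with CD2, a receptor on the T cell surface. They were found by name among the genes of the deposited single-cell matrices, 5 of 31908. The choice was made by name, with earlier results of these data known. The matrices come from single-cell RNA sequencing (scRNA-seq) of dissociated dorsal skin of healthy male farm pigs. The fresh library was made from cells that received no treatment, and the cryopreserved library from cells frozen in 90% FBS (fetal bovine serum) and 10% DMSO (dimethyl sulfoxide) and thawed, with about 8000 cells put into each. There was 1 library for each condition, and the sources used here do not say whether the same animal gave both. The protocol text given for both samples describes freezing, while the title and the treatment label mark one of them as fresh. With 1 library a condition no spread between samples could be measured, so no test was run, and every interval below covers counting error only.

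The T cell receptor is the pair of antigen-binding chains, α with β or γ with δ, by which a T cell recognises its target. These chains have short tails that cannot signal. The signal is passed on by the CD3 chains, encoded by CD3D, CD3E and CD3G, and by the ζ chain, encoded by CD247, whose tails carry the motifs that the kinase LCK phosphorylates and the kinase ZAP70 then binds. CD2 is an adhesion and co-stimulatory receptor that binds CD58 and related proteins on the partner cell. It is carried by T cells and natural killer (NK) cells and by some dendritic cells. CD247 also serves receptors of NK cells, while the CD3 chains are the textbook markers of T cells. Pigs are known for a large population of γδ T cells without CD2 on the surface.

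In the RefSeq annotation of Sscrofa11.1, the build that the authors mapped to, the CD3 genes lie side by side on chromosome 9. CD3E spans 45619730 to 45633972 on the plus strand with 9 exons, CD3D spans 45640475 to 45644153 on the minus strand with 5 exons, and CD3G spans 45645243 to 45656779 on the plus strand with 7 exons. CD3D and CD3G are read away from each other, from starts that lie 1090 bases apart. On chromosome 4, CD247 spans 83494266 to 83586887 on the plus strand with 8 exons, and CD2 spans 103963802 to 103976971 on the minus strand with 5 exons. The sequences of the 250 bases before the RefSeq start of 4 members are shown, as the members differ in where they were found (CD2 apart from the rest, CD3G at 0). The start is the annotated and not a measured one, and the part of these sequences in the differences was not tested. They read 5′ to 3′ on the strand of the gene. Capitals mark matches to AGGAAG or CGGAAG on either strand, the core of the sites that ETS factors bind.
CD3E (chr9:45619480-45619729): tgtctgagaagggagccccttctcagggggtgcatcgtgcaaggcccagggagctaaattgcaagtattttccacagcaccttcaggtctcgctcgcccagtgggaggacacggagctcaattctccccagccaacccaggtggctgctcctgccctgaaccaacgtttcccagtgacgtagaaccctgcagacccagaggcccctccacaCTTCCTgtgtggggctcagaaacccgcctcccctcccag
CD3G (chr9:45644993-45645242): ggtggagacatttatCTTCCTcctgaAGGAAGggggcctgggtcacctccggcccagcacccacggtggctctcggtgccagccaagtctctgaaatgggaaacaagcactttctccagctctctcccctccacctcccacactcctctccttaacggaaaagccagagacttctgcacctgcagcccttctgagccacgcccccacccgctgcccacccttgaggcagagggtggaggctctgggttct
CD247 (chr4:83494016-83494265): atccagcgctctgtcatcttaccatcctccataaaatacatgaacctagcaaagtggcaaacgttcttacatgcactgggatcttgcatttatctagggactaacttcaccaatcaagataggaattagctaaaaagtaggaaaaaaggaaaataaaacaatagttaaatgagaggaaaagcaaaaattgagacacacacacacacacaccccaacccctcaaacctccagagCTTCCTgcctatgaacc
CD2 (chr4:103976972-103977221): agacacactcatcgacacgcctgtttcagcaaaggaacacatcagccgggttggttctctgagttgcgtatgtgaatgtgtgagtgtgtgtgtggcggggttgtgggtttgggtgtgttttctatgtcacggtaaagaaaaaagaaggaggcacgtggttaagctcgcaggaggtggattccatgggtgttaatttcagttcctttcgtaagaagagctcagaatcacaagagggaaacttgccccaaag
CD3E and CD247 held 1 ETS match each and CD3G held 2, while CD2 held 0. Such a match occurs in 36.9% of the 19556 RefSeq promoters of this length. The RUNX core TGTGGT (14% of promoters) and TATAAA (9.77%) were in 0 of the 4 windows, AGATAA, the core of GATA sites (8.08%), was in CD247 and, overlapping an ETS match, in CD3G, and the E-box CANNTG (61.9%) was in each of these windows but that of CD247. These are matches of letters and not measured binding sites.

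The fresh matrix held 4379 cell barcodes and 53271738 unique molecular identifiers (UMIs, each marking 1 captured transcript), and the cryopreserved matrix 4860 barcodes and 42217632 UMIs. Within the maxima of the study (4500 genes, 30000 UMIs and 10% mitochondrial UMIs) there were 2775 fresh and 4223 cryopreserved cells. The libraries shared 6 barcodes, 5 of them among the filtered cells. The filtered cells formed 24 clusters with the 5 members left out of the clustering genes, and 21 clusters were placed in 9 classes by marker lists that do not contain the members. T or NK-like cells made up 3 clusters, 145 fresh cells (5.23% of the cells, exact 95% binomial interval 4.43 to 6.12%) and 253 cryopreserved cells (5.99%, interval 5.29 to 6.75%). Markers that met the rule in all 3 clusters included IL7R, the receptor of interleukin 7, CD96 and BCL11B, a transcription factor of T cells. The markers CCL5, KLRK1, KLRB1 and GZMA met it in 1 of them only. Levels are given as CPM, the UMIs of a gene for every 1000000 UMIs of the same cells. The assay reads 1 tag near the 3′ end of each transcript, so CPM were not divided by transcript length, and the level of a gene also depends on how well its 3′ end is annotated.

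CD3G had 0 UMIs in all 9239 barcodes of both libraries. In the 398 T or NK-like cells, with 2418184 UMIs in all, a count of 0, taken as up to 3 counts, allows a level of up to 1.24 CPM and a share of up to 0.754% of cells with a UMI. The exact 95% upper limits were 1.52 CPM and 0.923%. Such limits bound cells with a UMI and not cells that express the gene. Whether reads of CD3G were lost through its annotated 3′ end was not tested. The other members were found in both libraries, and CD3E, the most frequent, had 1499 UMIs in all fresh and 2137 in all cryopreserved barcodes. CD247 had 888 and 915, CD3D 255 and 285, and CD2 243 and 239. The counts that follow are those of the filtered cells.

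CD3E and CD3D were found almost only in T or NK-like cells. Of the CD3E UMIs, 99.6% of the fresh (1307 of 1312, interval 99.1 to 99.9%) and 98.0% of the cryopreserved ones (2047 of 2089, interval 97.3 to 98.5%) lay in this class, which held 3.29% and 3.69% of all UMIs. For CD3D the shares were 95.9% (188 of 196) and 99.3% (275 of 277). CD247 and CD2 were spread more widely, with 63.0% (442 of 702) and 63.1% (535 of 848) of the CD247 UMIs and 54.7% (75 of 137) and 58.5% (137 of 234) of the CD2 UMIs in T or NK-like cells. The members together had 85.7% of their fresh UMIs (interval 84.3 to 87.1%) and 86.8% of their cryopreserved UMIs (interval 85.7 to 87.9%) in this class.

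In the T or NK-like cells of the fresh library the level of CD3E was 1229 CPM (95% Poisson interval 1163 to 1298), that of CD247, the ζ chain, 416 CPM (378 to 456), that of CD3D 177 CPM (152 to 204) and that of CD2 70.5 CPM (55.5 to 88.4). In the cryopreserved library the levels were 1511 CPM (1446 to 1578), 395 CPM (362 to 430), 203 CPM (180 to 228) and 101 CPM (84.9 to 120). The order of the genes by UMIs was the same in both libraries, and the intervals of neighbours in that order did not overlap. All 4 were at least 10-fold higher in T or NK-like cells than in all other filtered cells, as were 2.31% of the 14443 genes with at least 50 UMIs. CD3D and CD3E, with 10 and 47 UMIs in all other cells, reached that minimum only through the T or NK-like cells. The ratio of the levels was 1964 for CD3E (interval 1473 to 2678), 1274 for CD3D (687 to 2675), 46.9 for CD247 (42.3 to 52.1) and 36.7 for CD2 (29.7 to 45.4). The plot of levels by class shows the separation.

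**Figure D1:**
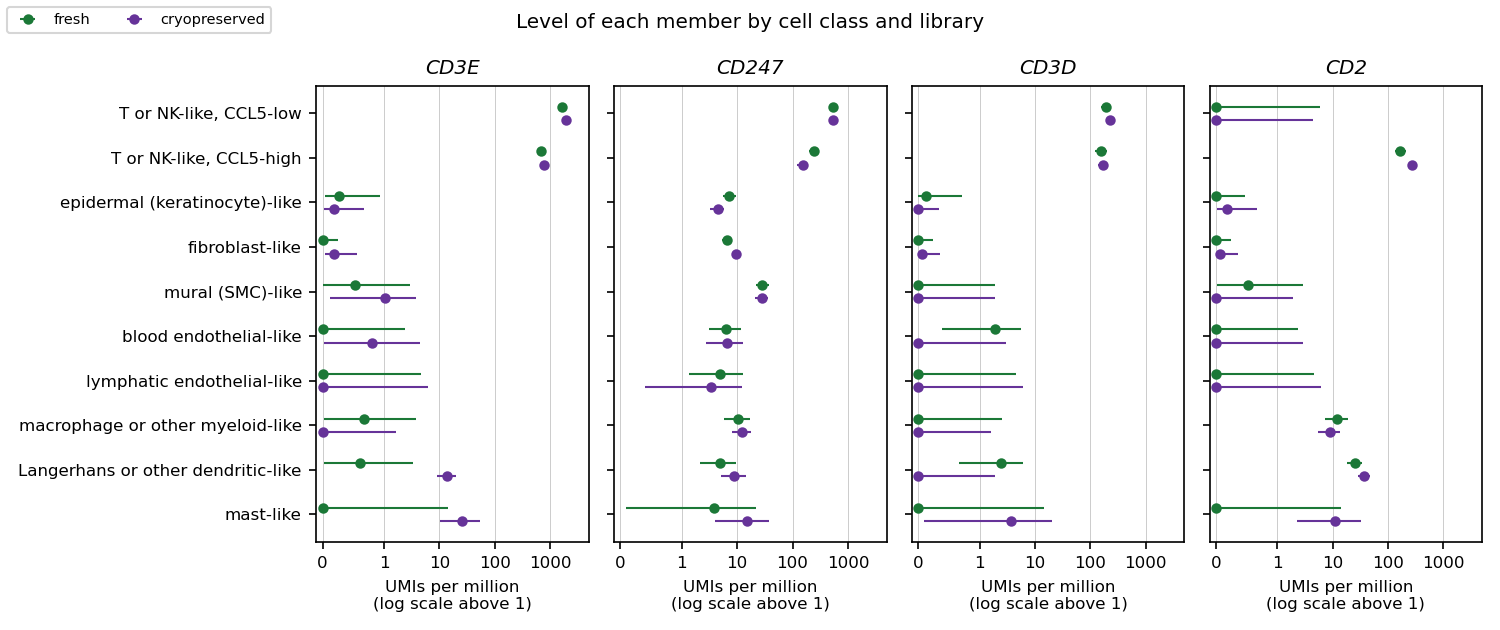
Level of CD3E, CD247, CD3D and CD2 in each named cell class (rows), in CPM on an axis that is logarithmic above 1 and linear below, for the fresh (green) and the cryopreserved library (purple), where bars are exact 95% Poisson intervals. CD3E and CD3D stand out in both kinds of T or NK-like cells, CD247 also reaches 28.6 and 27.6 CPM in mural cells, and CD2 is at 0 in CCL5-low cells and reaches 25.4 and 37.0 CPM in dendritic-like cells.

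Within the T or NK-like cells, CD2 was found in one cluster, and CD3D, CD3E and CD247 in all. The clusters differed in CCL5, a chemokine of cytotoxic lymphocytes that is one of the markers used for naming, and they are called by it here. CCL5 stood at 1931 CPM in the CCL5-high cluster (65 fresh and 98 cryopreserved cells) and at 9.82 and 28.9 CPM in the CCL5-low clusters (72 and 8 fresh, 142 and 13 cryopreserved cells). The CCL5-high cluster was named on 12 markers of the list, and the CCL5-low clusters on 6 and 7. Of the naming markers, KLRK1, KLRB1 and GZMA had 0 UMIs in CCL5-low cells. The names are those of clusters and not of each cell. In the CCL5-high cluster a CCL5 UMI was found in 16 of the 59 cells without a CD3E UMI. Of the 94 cells with 2 or more CD3E UMIs, 27 had one. CCL5 is not particular to lymphocytes here, as it stood at 2627 CPM in dendritic-like cells and at 1703 CPM in the larger myeloid-like cluster. CD2 had 75 fresh UMIs in 29 CCL5-high cells and 137 cryopreserved UMIs in 39 cells, or 168 CPM (interval 132 to 211) and 270 CPM (interval 227 to 319). In CCL5-low cells it had 0 UMIs, in 0 of 80 fresh cells, where up to 3 counts allow a share of up to 3.75% of cells with a UMI (exact upper limit 4.51%), and in 0 of 155 cryopreserved cells, where they allow up to 1.94% (exact upper limit 2.35%). Against a floor of 3 UMIs in the CCL5-low cells of the library, CD2 was at least 34.6-fold higher in the CCL5-high cells of the fresh library and at least 76.2-fold higher in those of the cryopreserved library. Of the members, 1 (CD2) of 4 was at least 10-fold higher in CCL5-high than in CCL5-low cells, against 1.65% of the 5500 genes with at least 50 UMIs in T or NK-like cells. Although CD2 did not enter the clustering, genes that vary with it did, so this is a description of the clusters and not a test. The 0 stood in CCL5-low clusters at each resolution tried, with the members kept among the clustering genes and without integration. With every barcode clustered, 3 CD2 UMIs were in the larger CCL5-low cluster and 298 in the CCL5-high cluster.

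The receptor chains ran the other way. CD3E stood at 1628 CPM in CCL5-low and 677 CPM in CCL5-high cells of the fresh library, a ratio of 2.40 (interval 2.11 to 2.74), and at 1960 and 762 CPM in the cryopreserved library, a ratio of 2.57 (interval 2.30 to 2.88). CD247 was likewise higher in CCL5-low cells, with 539 against 244 CPM in the fresh library (ratio 2.21, interval 1.77 to 2.77) and 541 against 152 CPM in the cryopreserved library (ratio 3.57, interval 2.80 to 4.60). For CD3D the ratio was 1.19 in the fresh library (190 and 159 CPM, interval 0.879 to 1.62) and 1.32 in the cryopreserved library (223 and 169 CPM, interval 1.02 to 1.72). The number of CD3E UMIs for each CD3D UMI was 8.59 in fresh CCL5-low cells (interval 7.09 to 10.5) and 4.25 in fresh CCL5-high cells (interval 3.28 to 5.59). In the cryopreserved library it was 8.78 (interval 7.55 to 10.3) and 4.50 (interval 3.55 to 5.75), so that the difference between the clusters was seen in both libraries. The small CCL5-low cluster, with 21 cells and a median depth of 10717 UMIs, had levels near those of the large one, 1661 against 1852 CPM for CD3E and 578 against 533 CPM for CD247.

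**Figure D2:**
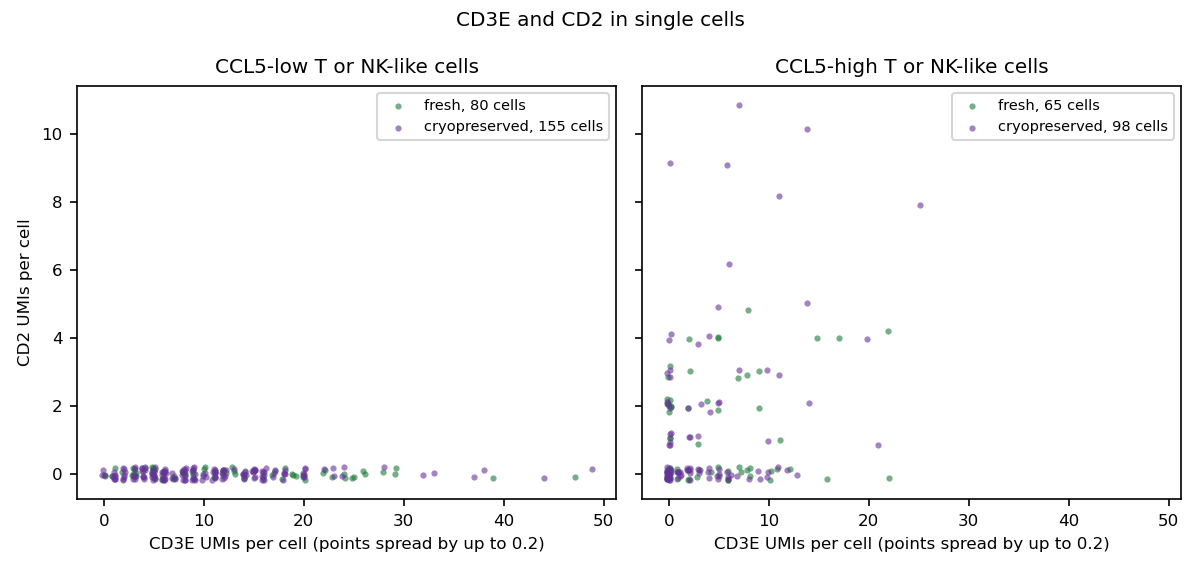
UMIs of CD3E (horizontal axis) and CD2 (vertical axis) in each T or NK-like cell, CCL5-low cells on the left and CCL5-high cells on the right, fresh cells in green and cryopreserved cells in purple; points are spread by up to 0.2 so that equal counts can be seen. All 235 CCL5-low cells lie at 0 for CD2 with up to 49 CD3E UMIs. CD2 reaches 11 UMIs in CCL5-high cells with CD3E and 9 UMIs in those without.

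Per cell, nearly all CCL5-low cells carried CD3E, while CD247 and CD3D were found in fewer. A CD3E UMI was found in 78 of 80 fresh CCL5-low cells (97.5%, exact 95% binomial interval 91.3 to 99.7%) and in 152 of 155 cryopreserved ones (98.1%, interval 94.5 to 99.6%), with medians of 10.5 and 9 UMIs a cell. A CD247 UMI was found in 92.5% and 86.5%, and a CD3D UMI in 68.8% and 60.0%. In each of the 235 cells at least 1 member was seen, and 135 cells had CD3D, CD3E and CD247 together. In CCL5-high cells CD3E was found in 43 of 65 fresh cells (66.2%, interval 53.4 to 77.4%) and 61 of 98 cryopreserved cells (62.2%, interval 51.9 to 71.8%), CD247 in 50.8% and 48.0%, CD3D in 46.2% and 41.8%, and CD2 in 44.6% and 39.8%. There, 21 of 163 cells had no member and 14 had CD2 with CD3D, CD3E and CD247. Median depths were close, 6812.5 and 5942 UMIs in the fresh and 4869 and 4694 in the cryopreserved library, CCL5-low and CCL5-high in turn.

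Thinned to 2000 UMIs, which leaves out 9 cryopreserved and 0 fresh T or NK-like cells with fewer, CD3E would be found in 90.8% of fresh and 93.1% of cryopreserved CCL5-low cells and in 55.8% and 54.9% of CCL5-high cells. At that depth CD2 would be found in 27.6% and 28.2% of CCL5-high cells. Fibroblast-like cells, which should lack the CD3 genes and CD2, gave the background, with a CD3E UMI in 0 of 1136 fresh and 3 of 1479 cryopreserved cells and a CD2 UMI in 0 and 1, at median depths of 12794 and 10041 UMIs. CD247 was seen there in 7.04% of fresh and 9.40% of cryopreserved cells, or 1.34% and 2.0% thinned to the same depth, against 47.9% and 49.6% of the T or NK-like cells.

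Among the T or NK-like cells, some genes around the receptor were, like CD2, found almost only in the CCL5-high cluster. Others were level or higher in CCL5-low cells. The listed genes, 79 in all, were chosen by name for their role, with earlier results of these data known. Of them, 65 were found and 47 had at least 50 UMIs in T or NK-like cells. The kinase LCK, which starts the signal and also binds CD4 and CD8, had 163 UMIs in CCL5-high cells (171 CPM) and 0 in CCL5-low cells, at least 83.4-fold higher against a floor of 3 UMIs over both libraries. THEMIS, an adaptor of T cell development, had 159 and 0 UMIs (at least 81.4-fold), TRAT1, an adaptor that stabilises the receptor complex, 103 and 0 (at least 52.7-fold), and the co-stimulatory receptor CD28 72 and 0 (at least 36.8-fold). These 4 genes, like CD2, reached the minimum of 50 UMIs only through the CCL5-high cells. Unlike CD2, they were not left out of the clustering genes, so their values are a description of the clusters. ICOS, a relative of CD28, had 101 CPM in CCL5-high and 2.05 CPM in CCL5-low cells. Outside the T or NK-like cells LCK had 272 UMIs, at a level of 4.09 CPM. Of the 47 genes, 10 were at least 10-fold higher in CCL5-high cells, against the 1.65% of all 5500 genes. Each of the 10 had fewer than 50 UMIs in CCL5-low cells and reached the minimum only through the CCL5-high cells. This count is therefore a description too and not a test.

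ZAP70, the kinase that binds the phosphorylated CD3 and ζ tails, was in contrast higher in CCL5-low cells, with 335 against 135 CPM. BLK, a kinase of the same family as LCK and known from B cells and γδ T cells, stood at 1754 against 590 CPM. SOX13, a transcription factor known from γδ T cells, stood at 671 against 154 CPM. GATA3, listed with BLK and SOX13 for γδ T cells of the pig, ran the other way, with 459 CPM in CCL5-low and 584 CPM in CCL5-high cells. The listed genes were not left out of the clustering genes, so their differences describe the clusters and are not a test. Some other signalling genes differed by less than 1.5-fold, such as PTPRC, the phosphatase CD45 (1588 and 1275 CPM), RHOH (1075 and 1012 CPM) and SKAP1 (533 and 607 CPM). Further ones differed by more, in both directions. PTPN22 (356.5 and 635 CPM) and LCP2 (240 and 411 CPM) were among those higher in CCL5-high cells. TXK (174 and 106 CPM) and VAV1 (225 and 149 CPM) were among those higher in CCL5-low cells. The only named receptor chain gene that was found, TRDC for the δ chain, had 1 UMI in the T or NK-like cells, in a CCL5-high cell. Of the 8 genes of the receptor chain list 6, among them TRAC and TRBC1, were not found by name, so the clusters could not be told apart by the receptor chains.

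**Figure D3:**
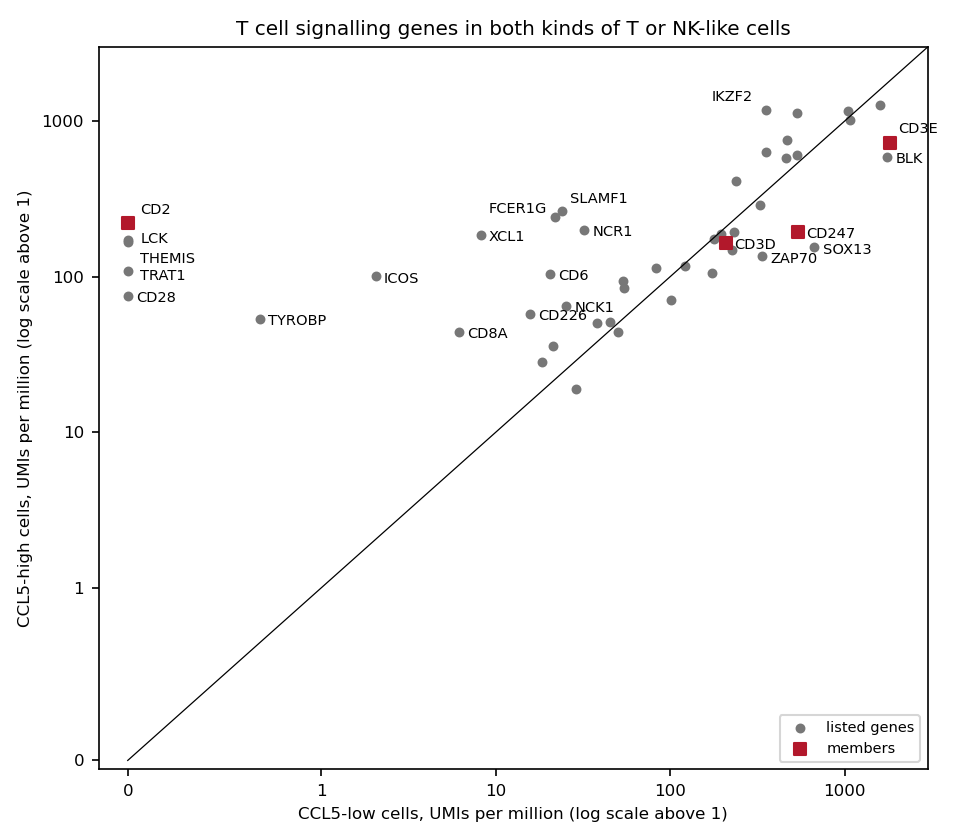
Level of the listed genes with at least 50 UMIs that are reported here (grey) and of the members (red squares) in CCL5-low cells (horizontal axis) and CCL5-high cells (vertical axis), both libraries together, in CPM on axes that are logarithmic above 1; the line marks equal levels. CD2, LCK, THEMIS, TRAT1 and CD28 lie at 0 on the horizontal axis, and CD3E, CD247, ZAP70, BLK and SOX13 lie below the line.

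Of the co-receptor and co-stimulation list, 14 of 15 genes were found and 8 had at least 50 UMIs in T or NK-like cells. These 8 were at least 10-fold higher in T or NK-like than in other cells, as were 2.31% of all genes. That share is of the 14443 genes with at least 50 UMIs over all filtered cells. The minimum for the listed genes was in the class where they are high, so the 2 shares are not alike. CD4, below that minimum, was 3.51-fold higher. The highest were SLAMF1 (118 CPM), CD5 (94.7 CPM), CD6 (53.4 CPM), ICOS (40.9 CPM) and CD226 (32.3 CPM). CD8A had 51 UMIs, 42 of them in CCL5-high cells, CD4 had 20, which were all in CCL5-high cells, and CD8B had 0. In the proximal signalling list 24 of 25 genes were found and 21 had at least 50 UMIs in T or NK-like cells. Of these, 13 were at least 10-fold higher than in other cells, beside the same 2.31% with its unlike minimum. Among the highest in level were PTPRC (1464 CPM), RHOH (1050 CPM), FYN (583 CPM) and SKAP1 (562 CPM). FYN, a kinase related to LCK, stood at nearly the same level in all other cells (564 CPM). Of the CD2 ligands, CD58 had 47.6 CPM in T or NK-like and 61.7 CPM in other cells, and CD48 had 216 and 15 CPM. CD48 was the 1 gene of its list that was at least 10-fold higher in T or NK-like cells. Of the adaptors that bind the tail of CD2, NCK2 stood at 1091 and 142 CPM, PSTPIP1 at 43.0 and 4.33 CPM and NCK1 at 40.9 and 60.4 CPM. CD2AP had 33 UMIs and CD2BP2 25. Among the other adaptors with the same signalling motif, FCER1G had 243 CPM in CCL5-high and 21.9 CPM in CCL5-low cells, TYROBP 53.5 and 0.683 CPM, and CD79A, known from B cells, 44.0 and 50.5 CPM. The B or plasma cell markers summed to 48.9 CPM in fresh and 54.6 CPM in cryopreserved T or NK-like cells, with 3 of the 5 found at 0, and their part in the level of CD79A was not tested. Of the NK list, NCR1 (98.0 CPM) and XCL1 (78.6 CPM) had at least 50 UMIs. Of the regulatory T cell list, IL2RA (769 CPM), IKZF2 (683 CPM) and TNFRSF4 (26.9 CPM) did, while FOXP3, the defining factor, had 0 UMIs in T or NK-like cells.

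The CCL5-high cells, taken over both libraries, were not uniform in CD3E. In 59 cells there was no CD3E UMI, in 10 cells there was 1 and in 94 cells there were 2 or more, at median depths of 5470 UMIs without CD3E and 5151 UMIs with 2 or more. These are ranges of a count and not cell types, and the 10 cells with 1 UMI lie at the boundary. CD2 was found on both sides, in 26 of the 59 cells without CD3E and in 42 of the 94 cells with 2 or more, at 176 and 261 CPM. By library, CD2 stood at 158 and 178.5 CPM in the fresh and at 189 and 341 CPM in the cryopreserved library. CD3D had 92.1 CPM in the cells without CD3E and 214 CPM in those with 2 or more, a ratio of 2.33 (interval 1.57 to 3.55). CD247 had 101 and 235 CPM, likewise a ratio of 2.33 (interval 1.60 to 3.49). The libraries differed in the size of this difference for CD247. It stood at 79.2 and 311.5 CPM in the fresh and at 117 and 160 CPM in the cryopreserved library. ZAP70 (31.7 and 183 CPM), LCK (57.5 and 240 CPM) and CD5 (23.0 and 169 CPM) were also higher where CD3E was. CD28 had 1 UMI in the cells without CD3E and 69 in those with 2 or more.

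Other listed genes were, over both libraries, higher in the cells without CD3E. NCR1, an activating receptor of NK cells, stood at 426 against 67.4 CPM, a ratio of 6.32 (interval 4.42 to 9.24). XCL1, a chemokine of NK and activated T cells, stood at 360 against 91.5 CPM (ratio 3.93, interval 2.83 to 5.53), TYROBP at 104 against 24.2 CPM (ratio 4.28, interval 2.25 to 8.60) and GATA3 at 1001 against 323 CPM (ratio 3.10, interval 2.59 to 3.72). For TYROBP the difference was smaller in the cryopreserved library (61.2 against 40.9 CPM) than in the fresh library (158 against 7.0 CPM). For NCR1 it was likewise smaller in the cryopreserved (260 against 81.8 CPM) than in the fresh library (640 against 52.5 CPM). KIT and IL1RL1, singled out after their values were seen, stood at 734 against 102 CPM and at 331 against 53.5 CPM. KIT is also one of the 7 mast cell markers. Of the 6 found by name, 5 were at 0 in fresh and 1 in cryopreserved CCL5-high cells, and the part of mast cells in these values was not tested. The rest of the NK list was not higher in the cells without CD3E. TBX21 stood at 51.8 CPM on both sides, and KLRD1 (2 and 7 UMIs), EOMES (1 and 2) and NCAM1 (0 and 1) were rare. Of the cytotoxic naming markers, KLRB1 was lower without CD3E (210 against 434 CPM). The ratios of KLRK1 (293 and 358 CPM), PRF1 (83.4 and 109 CPM) and GZMA (193 and 197 CPM) had intervals that include 1.

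Outside the T or NK-like cells CD247 was measured at a low level in every class. It had 573 UMIs in 484 of these 6600 cells, with at most 5 in a cell. Mural (SMC)-like cells, the smooth muscle cells and pericytes of vessel walls, had the highest level, 28.6 CPM among fresh cells (interval 21.5 to 37.2) and 27.6 CPM among cryopreserved cells (interval 20.7 to 36.1). Over both libraries the next named class was macrophage or other myeloid-like cells with 11.3 CPM (interval 8.15 to 15.3). That interval did not reach that of mural cells (23.1 to 33.9). Mast-like cells had 9.46 CPM (3.07 to 22.1), and the unnamed clusters together had 11.4 CPM (6.85 to 17.8). Fibroblast-like (8.07 CPM), dendritic-like (7.0 CPM), blood endothelial-like (6.4 CPM), epidermal (keratinocyte)-like (5.6 CPM) and lymphatic endothelial-like cells (4.26 CPM) followed. Their neighbours in this order did not differ beyond their intervals. The mural-like clusters differed over both libraries. The cluster with CNN1 as its top gene had 41.3 CPM of CD247 (65 UMIs), and the one with HIGD1B had 18.95 CPM (43 UMIs). In mural-like cells 82 of 618 had a CD247 UMI, and 2 of these 82 had a CD3E UMI. Fibroblast-like cells had 3 CD3E UMIs beside 247 of CD247, or 0.0121 for each, where T or NK-like cells had 3.43.

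CD2 was also found in antigen-presenting cells. Langerhans or other dendritic-like cells had 42 fresh UMIs (25.4 CPM, interval 18.3 to 34.3) in 24 of 109 cells and 71 cryopreserved UMIs (37.0 CPM, interval 28.9 to 46.7) in 28 of 183 cells. In the cryopreserved library 1 of these cells held 26 UMIs, and without it the level was 23.7 CPM, where the fresh level without its top cell was 21.4 CPM. Thinned to 2000 UMIs, CD2 would be found in 4.06% and 4.43% of the dendritic-like cells, against 22.0% and 15.3% as measured. With all cells, the CD2 UMIs of the class made up 30.7% of all CD2 UMIs of filtered fresh cells and 30.3% of those of the cryopreserved library. A CD3E UMI was seen in 1 of the 52 cells with CD2, and LCK had 0 UMIs in these cells. The T or NK markers other than CCL5 summed to 336 CPM in the 52 cells and to 135 CPM in the 240 cells of the class without CD2, at median depths of 15273.5 and 10895.5 UMIs. FLT3, a growth factor receptor of dendritic cells, stood at 404 CPM in the cells with CD2 and 220 CPM in those without, and CCR7 at 1059 and 682 CPM. The other dendritic markers found were nearly level: CD207, the Langerhans cell lectin (226 and 222 CPM), BCL2A1 (1783 and 1745 CPM), IRF8 (400 and 387 CPM) and CIITA (263 and 261 CPM). Macrophage or other myeloid-like cells had 38 CD2 UMIs in 23 of 428 cells (12.2 CPM in the fresh and 8.92 CPM in the cryopreserved library). Of the 18 fresh UMIs 8 were in 1 cell, and without the top cell of each library the levels were 6.85 and 7.17 CPM. In all other classes but mast-like cells, where 1 cell held 3 CD2 UMIs, the level of CD2 over both libraries was below 1 CPM, and 0 UMIs were found in blood and lymphatic endothelial-like cells.

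CD3E outside the T or NK-like cells came from few cells. Of its 47 UMIs in 17 of 6600 cells, most lay in 3 cryopreserved cells, 2 dendritic-like ones with 18 and 8 UMIs and a mast-like one with 7. The first of them had 22802 UMIs in all and no CD3D UMI. The mast-like one held every measured member, with 1 CD3D, 7 CD3E, 2 CD247 and 3 CD2 UMIs. CD3D had 10 UMIs in 8 cells outside the class, and 1 fresh blood endothelial-like cell held 3 of these UMIs.

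Between the libraries, the question was whether freezing changed the levels of the receptor genes in T or NK-like cells. None of the 4 measured members passed 1.5-fold in either direction, against 17.2% of the 5500 genes with at least 50 UMIs in these cells. Each of the 4 had at least 200 UMIs there, and of the 2311 genes with that many 10.3% passed. CD3E was 1.23 times as high in the cryopreserved library (interval 1.15 to 1.32), CD3D 1.15 times (interval 0.95 to 1.39), CD247 0.95 times (interval 0.836 to 1.08) and CD2 1.43 times (interval 1.07 to 1.93). The members together stood at 1892 CPM in the fresh and 2210 CPM in the cryopreserved library, a ratio of 1.17 (interval 1.10 to 1.24). The median log2 ratio of the 4 measured members was 0.25 (cryopreserved over fresh), where that of the 5500 genes was -0.05. With 1 library a condition, a difference between conditions and a difference between samples cannot be told apart.

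The ratios differed between the kinds of T or NK-like cells. In CCL5-low cells 0 of the 3 members with at least 50 UMIs passed 1.5-fold, against 15.5% of 4053 genes, with log2 ratios of 0.27 for CD3E, 0.24 for CD3D and 0.00 for CD247. In CCL5-high cells 2 of 4 did, against 23.8% of 3306 genes. There, CD247 stood at 244 CPM (109 UMIs) in the fresh and 152 CPM (77 UMIs) in the cryopreserved library, a ratio of 0.620 (interval 0.457 to 0.838), and CD2 stood at 168 and 270 CPM, a ratio of 1.60 (interval 1.2 to 2.16). CD3E (ratio 1.13, interval 0.965 to 1.31) and CD3D (1.06, interval 0.768 to 1.48) had intervals that include 1. In these CCL5-high cells the 7 markers of mural cells, the class with most CD247 outside the T or NK-like cells, summed to 91.9 CPM in the fresh library, all of it in at most 5 cells, and to 11.8 CPM in the cryopreserved library. Blood endothelial markers summed to 60.5 and 236 CPM. Their part in the ratios was not tested. Whether the ratio of CD247 differed between the clusters beyond a spread between samples was not tested.

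**Figure D4:**
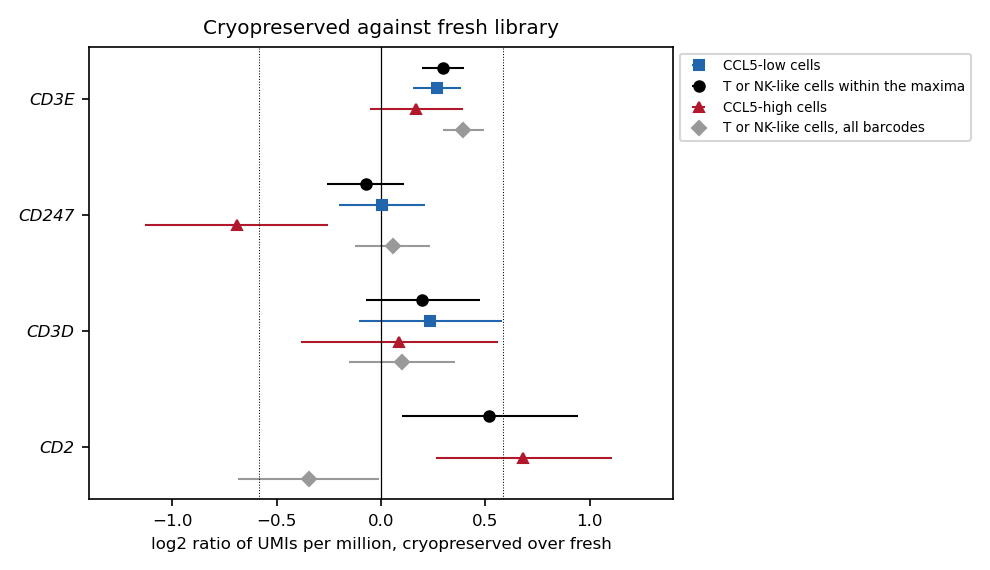
Log2 ratio of each member's CPM, cryopreserved over fresh, in all T or NK-like cells within the maxima (black circles), CCL5-low cells (blue squares), CCL5-high cells (red triangles) and T or NK-like cells of all barcodes (grey diamonds); bars are exact 95% intervals for counting error and dotted lines mark 1.5-fold. CD2 lies above 0 within the maxima and below 0 with all barcodes, and CD247 lies below 0 in CCL5-high cells.

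The direction for CD2 turned with the barcodes that were used. With every barcode clustered, CD2 had 160 fresh UMIs (126 CPM) and 141 cryopreserved UMIs (98.7 CPM) in T or NK-like cells, a ratio of 0.787 (interval 0.623 to 0.993). In that clustering 2 fresh barcodes held 49 and 21 CD2 UMIs, with 29 and 21 of CD3E. They held 7006 and 4927 genes, beyond the maximum of 4500, and 64959 and 27683 UMIs in all. Without these barcodes CD2 stood at 76.1 and 98.7 CPM, a ratio of 1.30 (interval 0.988 to 1.71). Of all fresh CD2 UMIs 43.6% (106 of 243, interval 37.3 to 50.1%) lay in barcodes beyond the maxima, which held 39.4% of the fresh UMIs, against 12.5% of the fresh CD3E UMIs (187 of 1499, interval 10.8 to 14.2%). In the cryopreserved library the shares were 2.09% for CD2 (5 of 239) and 2.25% for CD3E (48 of 2137), where 13.1% of the UMIs lay beyond the maxima. For CD3E, CD3D and CD247 the ratios with all barcodes were 1.32, 1.07 and 1.04.

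Among the listed genes around the receptor, 8 of 47 passed 1.5-fold between the libraries in T or NK-like cells, 2 higher and 6 lower in the cryopreserved library. This share was close to the 17.2% of all 5500 genes, so the values below are a description of single genes. The median log2 ratio of the 47 was -0.13, beside -0.05 over all 5500. The higher ones were PLCG1, a phospholipase of the receptor pathway, with 10.4 and 31.7 CPM (ratio 3.07, interval 1.56 to 6.6), and TNFRSF4, a co-stimulatory receptor, with 18.8 and 33.2 CPM (1.77, interval 1.02 to 3.16). The lower ones included CD28 (41.4 and 20.7 CPM, 0.499, interval 0.299 to 0.820), XCL1 (104 and 58.3 CPM, 0.559), THEMIS (83.7 and 51.7 CPM, 0.617), PTPN22, a phosphatase that restrains LCK (592 and 368 CPM, 0.623), and NCR1 (122 and 79.0 CPM, 0.646). CD28, THEMIS, XCL1 and NCR1 lay only or mostly in CCL5-high cells, which were 65 of 145 fresh and 98 of 253 cryopreserved cells. Within CCL5-high cells THEMIS stood at 200 and 138 CPM, within 1.5-fold. CD28 (98.7 and 55.1 CPM), XCL1 (235 and 144 CPM) and NCR1 (251 and 154 CPM) still passed 1.5-fold there. The 2 kinases at the start of the signal, LCK and ZAP70, both stood at a ratio of 1.02. Fibroblast markers summed to 632 and 448 CPM in the fresh and cryopreserved T or NK-like cells, epidermal markers to 106 and 281 CPM, mural markers to 47.0 and 9.60 CPM, blood endothelial markers to 52.7 and 120 CPM and myeloid markers to 13.2 and 28.8 CPM, with 7 and 2 of the 10 myeloid markers at 0. Their part in the ratios was not tested.

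Over all filtered cells, the genes whose log values went most closely with those of CD3E included an unnamed gene (ENSSSCG00000029596, mean Pearson's r of both libraries 0.88), BLK (0.87), a further unnamed gene (ENSSSCG00000032017, 0.83) and RHEX (0.80), taken over 2775 fresh and 4223 cryopreserved cells. For CD3D they included the same unnamed genes, BLK (0.63) and ZAP70 (0.60), and for CD247 BLK (0.70), both unnamed genes and RHEX (0.65). CD2 went with other genes, KLRK1 (0.45), GZMA (0.41), CAMK4 (0.39), SERPINB9 (0.38) and GNLY (0.38), which include receptors and granule proteins of cytotoxic cells. Among the members, r was 0.73 between CD3E and CD3D, 0.69 between CD3E and CD247 and 0.24 between CD3E and CD2. Within the T or NK-like cells alone (145 and 253 cells), the closest gene to CD2 was LCK (0.64), followed by CCL5 (0.57), and r was -0.18 between CD2 and CD3E and -0.29 between CD2 and CD247. These negative values are over the cells of all 3 clusters. Within the CCL5-high cells (65 and 98), which held all CD2 UMIs of the T or NK-like cells, r was 0.16 between CD2 and CD3E and -0.09 between CD2 and CD247. Cells of 1 library share its preparation and differ in depth, so these correlations describe the cells at hand.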

How the data were processed

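The authors made 1 droplet scRNA-seq library from fresh and 1 from cryopreserved pig skin cells and processed the reads with Cell Ranger 4.0.0 and STAR 2.5.1b (submitters' processing notes) against Sscrofa11.1 with its Ensembl annotation. They deposited UMI counts per gene and barcode, not normalized, the fresh matrix summing to 53271738 UMIs and the cryopreserved one to 42217632. Here, barcodes with over 4500 genes, 30000 UMIs or 10% of UMIs on 13 mitochondrial genes were left out. Libraries were integrated and clustered with Seurat 5.3.0 (30 dimensions, 2000 features without the members, resolution 0.8). A marker list named a cluster when at least 3 of its genes were found in 10% of the cells and raised 2-fold. This rule was set after seeing the output, and the members and lists were chosen with earlier results of these data known. Scrublet in scanpy 1.11.5 marked 3 fresh (0.108%) and 35 cryopreserved (0.829%) cells as doublets. Too few were marked to rely on, so none were removed, and leaving out the 5% with the highest scores was an alternative. The study removed aggregates by sorting.

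UMIs were summed over cells of a class and library and divided by the summed UMIs (CPM), with exact Poisson, conditional binomial or Clopper-Pearson 95% intervals from scipy 1.17.1. For thinned shares the exact probability of drawing a UMI was averaged over cells. The text names all members and, for each list, up to 5 genes of highest CPM among those with at least 50 UMIs and those past 1.5-fold. Genes were also named for their difference between CCL5-low and CCL5-high cells or by CD3E count, which was chosen after seeing the values. The closest genes were taken among those with at least 100 UMIs, on log(1 + 10000 times the share of UMIs). Alternatives used the scaling of edgeR 4.0.16 (TMM) and DESeq2 1.42.0, other clusterings and minimum counts. Positions and promoters are those of RefSeq, and protein sequences were not used here. A few listed genes, although counted in the totals of their lists and the closest genes, and 1 promoter are not reported here.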

Additional observations from a re-analysis of the deposited data

How the results depend on the processing

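No paired analysis was possible because each condition has 1 library and no test was run. The clustering resolution (0.4 or 1.2), merging without integration, keeping the members among the clustering genes, and leaving out the 5% of cells with the highest doublet scores kept the share of the members' summed UMIs in T or NK-like cells and each member's ratio between the libraries within its counting interval. TMM and DESeq2 scaling and leaving out the cell with most UMIs of a gene, run for the ratios, did the same. With all barcodes clustered again, the share of member UMIs in T or NK-like cells of the fresh library moved to 79.5%, and to 78.4% without the 2 barcodes with most CD2 UMIs, a setting chosen after seeing the data. With all barcodes the log2 ratio of CD2 reversed to -0.35, and without those 2 barcodes it was 0.37. In CCL5-high cells by themselves (also a later choice, as was CCL5-low cells by themselves) the ratio of the members together was 1.08, and the log2 ratios of CD3E and CD247 were 0.17 and -0.69. With at least 20 in place of 50 UMIs, 1941 of 7926 genes passed 1.5-fold between the libraries in place of 948 of 5500, and with at least 200 UMIs 239 of 2311 did, as fewer genes of low count were tested. With at least 200 UMIs, 219 genes in place of 333 were at least 10-fold higher in T or NK-like cells. Shares of cells with a UMI depend on depth: thinning to 2000 UMIs took CD2 from 20% to 12.4% of the fresh and from 15.4% to 10.8% of the cryopreserved T or NK-like cells.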
